A study of Rattus norvegicus with 8 samples.

Results

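The genes described here make cholesterol in the liver or hold its level steady: 18 enzymes of the synthesis route and 10 proteins that sense, move, esterify or clear it. They were chosen by name, and probes were assigned through the accession printed for each probe on the array. All 28 genes were found among the 15168 gene symbols on the array, with 32 probes in all. Soat1 was too dim to be tested, which left 27 of the 22872 features that entered the comparison. The samples were 8 livers of male rats aged 22 weeks, taken after 14 weeks on the diets. Of these, 5 labelled NAFLD (non-alcoholic fatty liver disease) came from a high fat diet and 3 labelled control from standard chow. Each was hybridised to 1 single-colour array. The labels give no strain, genetic change or further agent, and nothing states that each sample is a separate animal, so a p-value here reflects only how far these 8 samples spread, which may be technical.

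Cholesterol is built from acetyl-CoA through mevalonate, isoprenoid units, squalene and lanosterol. The transcription factor SREBP2, encoded by Srebf2, switches most of these enzymes on together. When membrane cholesterol is low, the escort protein SCAP carries SREBP2 from the endoplasmic reticulum to the Golgi, where it is cut and released. When cholesterol is plentiful, the INSIG proteins hold SCAP back. In liver, dietary cholesterol is a classical signal that turns this programme down; the labels do not give the cholesterol content of the high fat diet.

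The log2 level of a gene is the log2 of its probe's signal after subtraction of the array's 75th percentile, and each difference is high-fat minus chow. Values are given in the order of the array numbers, 1 to 5 under high fat and 1 to 3 under chow, an order that carries no meaning. The arrays fell into 3 scan times in the file headers: high-fat arrays 2, 3 and 5 shared scan 1, all 3 chow arrays shared scan 2, and high-fat arrays 1 and 4 shared scan 3. Scan and diet therefore cannot be told apart. Probes well above background made up 79.1% to 92.8% on the high-fat arrays and 66.9% to 71.8% on the chow arrays. All 8 hepatocyte markers were measured. None of the 8 passed, but all 8 differences were below 0 (median −0.43). The log2 of the markers' summed signal, which the brightest of them dominate, was 9.18 to 9.41 on high-fat and 9.24 to 9.95 on chow arrays. All 8 lay in the brightest decile of features, where the median difference of all features was −0.24. With that decile median taken off, the markers' median was −0.20. No marker passed among 7 of Kupffer cells, 4 of endothelium, 7 of stellate cells and fibroblasts, 4 of bile ducts, 4 of lymphocytes, 2 of adipocytes, 4 of pancreas and 2 of red cells. The fat cell marker Adipoq was too dim to be tested. Fewer cells of a type and less RNA per cell cannot be told apart in whole tissue.

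No gene of cholesterol synthesis or its control passed the test between the diets. Of the 27 tested members, 0 rose and 0 fell at an adjusted p of 0.05 (limma with Benjamini-Hochberg adjustment over all features), while 3.56% of all features passed, 3.07% higher and 0.49% lower. At an unadjusted p under 0.05 there were 3 members, the mevalonate kinase gene Mvk, the sterol reductase gene Tm7sf2 and Scap, all with lower means on high-fat diet; 20.2% of all features reached that level and 9.37% did so with lower means. The high-fat and chow arrays did not overlap for 3 members (Mvk, Ebp and Scap), and all 3 were lower on high-fat diet. Among all features 17.1% did not overlap, 9.17% lower and 7.93% higher on high-fat diet. The shares of members past these marks lay near or under those of all features. The split of the 815 passing features, 703 higher and 112 lower, moved with scaling: it was 798 and 294 with quantile normalization, 981 and 314 with cyclic loess, 1038 and 1077 with normexp and quantile normalization, and 830 and 310 in the authors' deposited log2 values.

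Among the 18 synthesis enzymes, 13 differences were below 0 and 5 above it, with a median of −0.21 against −0.0055 over all features. This median turned with single arrays. It stayed below 0 in every scaling tried, but with a normexp background it was −0.12 while all features stood at −0.29. It was 0.11 without chow array 1, −0.48 without chow array 3, −0.12 without chow array 2 and −0.11 without high-fat array 4. The difference between diets followed brightness across all features, from a median of 0.51 in the dimmest decile of features to −0.24 in the brightest, and 13 of the 18 enzymes lay in the 2 brightest deciles. With the median of its own brightness decile taken off each gene, the enzymes' median was −0.024. The part of brightness in single differences was not tested.

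**Figure D1:**
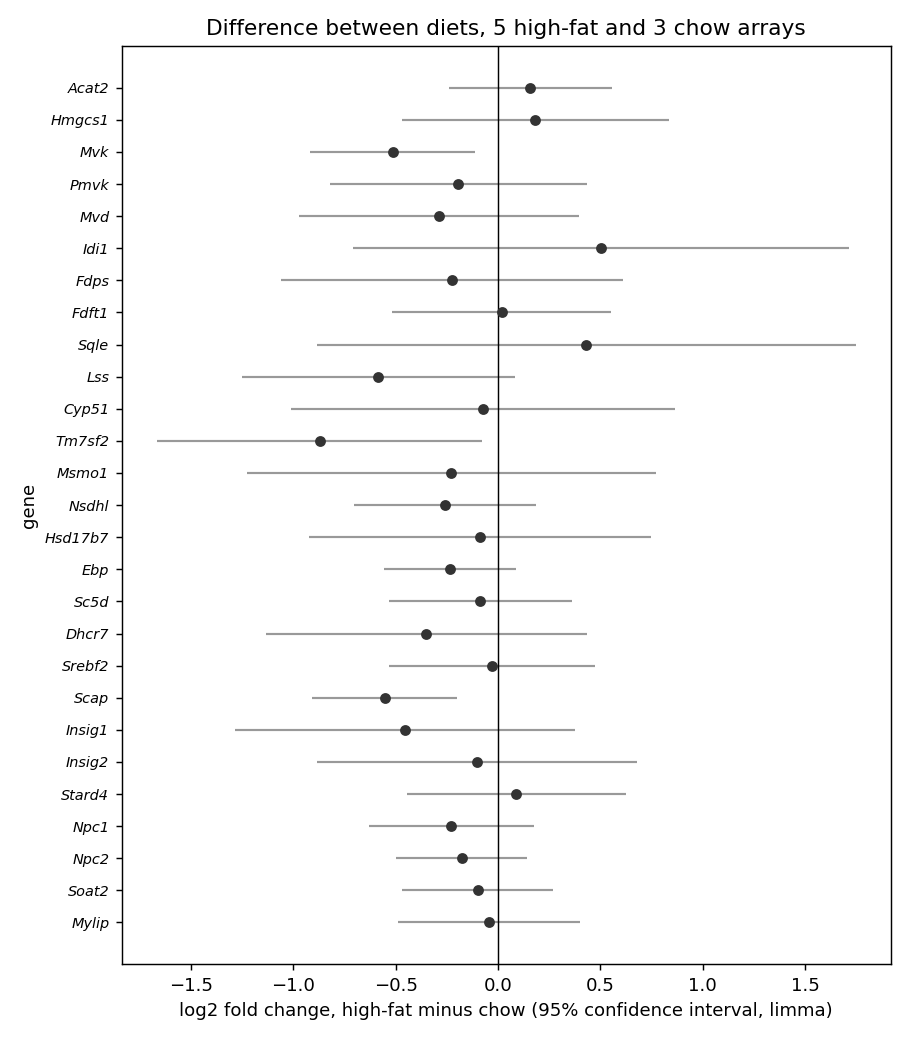
The difference between diets (high-fat minus chow, log2) of each of the 27 tested genes is plotted as a point with its 95% confidence interval from limma, for 5 high-fat and 3 chow arrays. Intervals of 24 genes cross 0, those of Mvk, Tm7sf2 and Scap do not, and Idi1 and Sqle have the widest.

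At the start of the route, Acat2 (cytosolic acetoacetyl-CoA thiolase) and Hmgcs1 (HMG-CoA synthase) join acetyl units. The log2 level of Hmgcs1 was 6.02, 5.77, 5.78, 5.63 and 5.23 under high fat, and 6.09, 5.55 and 4.87 under chow. The chow arrays held both the highest and the lowest value of this gene. Its difference was 0.18 ± 0.29 (SE, limma adjusted p = 0.782), with a 95% confidence interval from −0.47 to 0.84. Acat2 ranged from 2.85 to 3.39 on high-fat and from 2.76 to 3.18 on chow arrays, a difference of 0.16 (adjusted p = 0.678).

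Mevalonate is then phosphorylated and trimmed by the products of Mvk, Pmvk and Mvd. Mvk stood at −0.44, −0.46, −0.88, −0.83 and −0.64 under high fat, and at 0.14, −0.22 and −0.32 under chow. Every high-fat array lay below every chow array, by a gap between the nearest arrays that was smaller than the spread inside either diet. The difference was −0.51 ± 0.18 (SE, limma adjusted p = 0.156), 1.43-fold lower, and its direction was kept in all 22 alternative fits without passing in any (adjusted p from 0.05002 to 0.863). Without overlap between diets, the fits that left out arrays could not turn this direction. Pmvk (phosphomevalonate kinase) ranged from −2.11 to −1.40 on high-fat and from −2.25 to −1.06 on chow arrays. Mvd (mevalonate diphosphate decarboxylase) ranged from −2.16 to −1.66 and from −2.27 to −0.81. In both genes the chow range enclosed the high-fat range.

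Isopentenyl units are isomerised by Idi1 and joined into farnesyl diphosphate by Fdps. Idi1 had the largest positive difference of the 18 enzymes. Its log2 level was 4.00, 3.36, 2.65, 2.93 and 2.23 under high fat, and 3.23, 3.11 and 1.25 under chow. Chow array 3 lay far under the other 7 arrays, and the other two chow arrays fell inside the high-fat range. The difference was 0.50 ± 0.53 (SE, limma adjusted p = 0.658), from −0.71 to 1.72 in the 95% confidence interval, and −0.13 without chow array 3. Fdps had 2 probes. The brighter ranged from 2.44 to 3.03 on high-fat arrays and read 3.80, 3.19 and 2.05 under chow; the other ranged from 1.85 to 2.88 and read 3.66, 2.86 and 1.71. Both probes placed chow array 1 highest and chow array 3 lowest of the 3.

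Squalene is formed by Fdft1 (squalene synthase), oxidised by Sqle (squalene epoxidase, a rate-limiting step) and closed into lanosterol by Lss. Sqle read 3.40, 2.89, 2.09, 1.98 and 1.43 under high fat, and 2.76, 2.42 and 0.60 under chow. The highest and lowest high-fat arrays were 3.90-fold apart and the chow arrays 4.46-fold, so the spread inside each diet exceeded the 1.35-fold difference between their means. That difference was 0.43 ± 0.58 (SE, limma adjusted p = 0.74), from −0.89 to 1.75 in the 95% confidence interval. Lss stood at 0.31, 0.20, 0.36, −0.22 and −0.37 on high-fat arrays and 1.07, 0.89 and −0.04 on chow arrays. Chow arrays 1 and 2 lay above all 5 high-fat arrays and chow array 3 among them. The difference of Lss was −0.59 ± 0.29 (SE, limma adjusted p = 0.304), −0.93 without chow array 3 and −0.37 without chow array 1. Fdft1 ranged from 2.12 to 2.87 on high-fat and from 2.12 to 2.83 on chow arrays, with a difference of 0.017 (adjusted p = 0.979).

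The 8 enzymes that turn lanosterol into cholesterol all had differences below 0 (median −0.23), but this did not hold throughout. With the median of its brightness decile taken off each gene, their median was −0.024 and 4 of the 8 lay above 0 (Cyp51 0.071, Sc5d 0.059, Msmo1 0.0087 and Ebp 0.0024). Cyp51, Sc5d and Dhcr7 also turned above 0 in some scalings, and leaving out single arrays turned these 3, Msmo1 and Hsd17b7. Tm7sf2, a sterol reductase, had the most negative difference of any member. Its log2 level was 3.22, 2.41, 2.15, 2.78 and 1.93 under high fat, and 3.70, 3.71 and 2.70 under chow. Chow array 3 fell inside the high-fat range. The difference was −0.87 ± 0.35 (SE, limma adjusted p = 0.211), 1.83-fold lower. It was −0.37 for the high-fat arrays of scan 3 and −1.21 for those of scan 1, where it passed (limma adjusted p = 0.0456).

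The other enzymes of this stretch had smaller differences, and several had a wide range inside chow. Msmo1 (sterol methyl oxidase) read 3.73, 3.59, 3.21, 2.76 and 2.94 under high fat, and 4.37, 3.72 and 2.33 under chow, a 4.13-fold range inside chow alone. Cyp51 (lanosterol demethylase) ranged from 2.27 to 3.43 on high-fat and from 1.90 to 3.59 on chow arrays. Dhcr7, the reductase of the last step, ranged from 1.88 to 2.55 and from 1.69 to 3.31. In these 3 genes chow held the highest and the lowest array. Ebp (sterol isomerase) had the smallest SD within diet of the 18 enzymes (0.13), at 4.05 to 4.40 on high-fat and 4.43 to 4.54 on chow arrays, without overlap, with a difference of −0.23 (limma adjusted p = 0.4). All features of its brightness decile had a median of −0.24, and the difference of Ebp was −0.036 with quantile normalization, −0.023 with cyclic loess and −0.034 in the authors' deposited log2 values. Nsdhl, Hsd17b7 and Sc5d, a sterol dehydrogenase, a ketosteroid reductase and a sterol desaturase, had differences of −0.26, −0.087 and −0.086 (adjusted p from 0.51 to 0.926). Nsdhl stood at −0.063 without chow array 1 and at −0.44 without chow array 3.

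**Figure D2:**
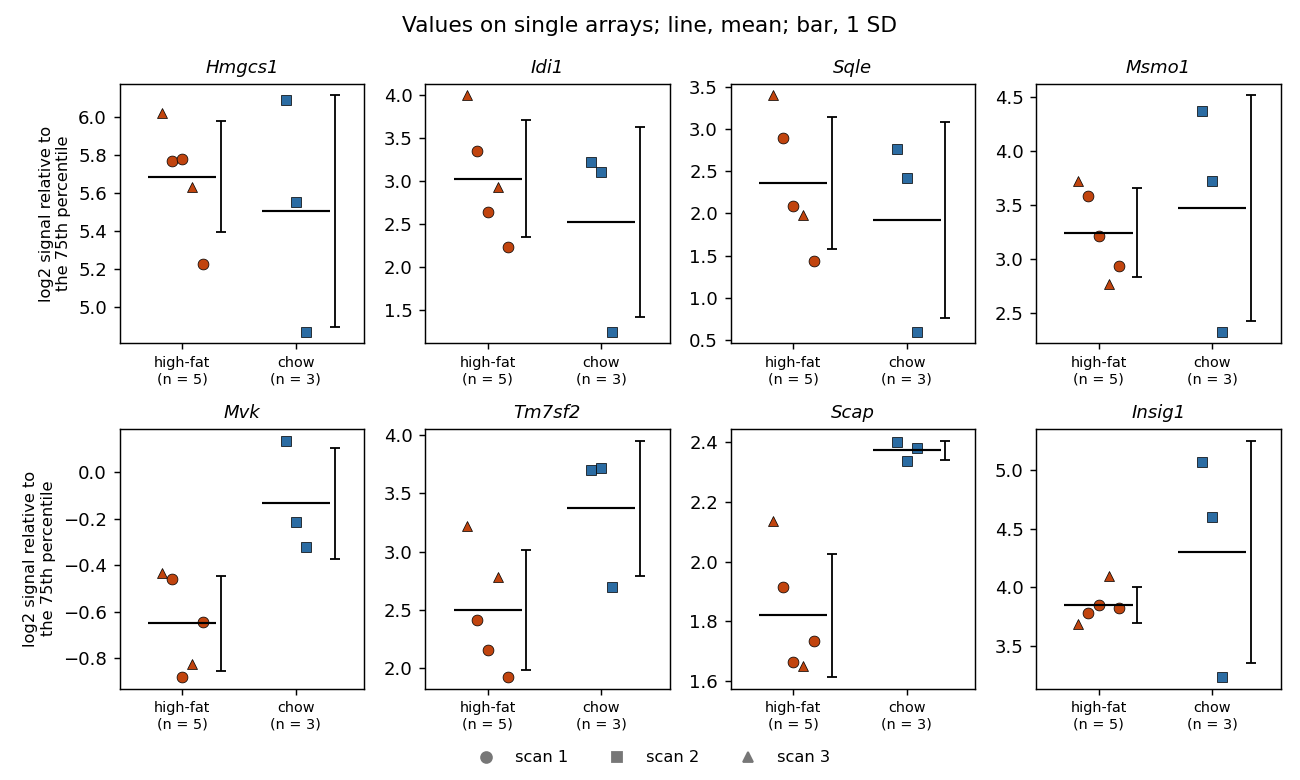
Log2 level (75th percentile of the array subtracted) of 8 genes on each of the 5 high-fat and 3 chow arrays, with the mean as a line, 1 SD as a bar and the scan time as the symbol. Only in Mvk and Scap, among these 8, do the diets not overlap; chow array 3 is the lowest point in Hmgcs1, Idi1, Sqle, Msmo1 and Insig1.

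Although no member passed between diets, most synthesis enzymes were high or low together from array to array. Measured from the chow mean of each gene, the median enzyme stood at 0.015, −0.052, −0.22, −0.39 and −0.44 under high fat, and at 0.50, 0.12 and −0.66 under chow. On chow array 1 only 1 of 18 enzymes lay below its chow mean, on chow array 3 17 did, and on high-fat array 5 17 did. Against this, 8 of 18 lay below it on high-fat array 1. The median over all features on the same arrays ran only from −0.16 to 0.18. The spread was present inside single scans: all 3 chow arrays shared a scan, and so did high-fat arrays 1 and 4.

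Pearson's r between 2 enzymes over the 8 arrays averaged 0.52 over all 153 pairs, of which 139 were above 0; Spearman's rho averaged 0.51. Over all features with a value on every array, the average of r was 0.039, and over features of the 2 brightest deciles it was 0.25. With the mean of each scan removed the enzymes averaged 0.62, features of the 2 brightest deciles 0.17 and all features 0.05. Without chow arrays 1 and 3, the 2 arrays farthest from the median in the enzymes' mean, the enzymes averaged 0.40 and all features 0.04. Over the 5 high-fat arrays alone the enzymes averaged 0.38 and all features 0.05. For these last 2 comparisons no average over the brightest features is given. These averages describe 8 arrays that share scans, and no p is attached to them. The closest pair was Idi1 with Sqle (0.98), and the most opposed was Acat2 with Sc5d (−0.80).

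Agreement was not uniform along the route. Set against the mean of the other 17 enzymes, 10 enzymes had an r of at least 0.8 over the 8 arrays, a level reached by 0.29% of all features (66 of 22723, the enzymes included). They were Hmgcs1 (0.86), Mvd (0.80), Fdps (0.95), Fdft1 (0.87), Sqle (0.83), Lss (0.82), Cyp51 (0.97), Msmo1 (0.97), Hsd17b7 (0.89) and Dhcr7 (0.96). Idi1, Nsdhl, Pmvk, Tm7sf2 and Mvk followed with values from 0.57 to 0.78. Ebp (0.37), Sc5d (0.18) and the first enzyme, Acat2 (−0.11), kept apart from the rest. Over the high-fat arrays alone, r was low for Mvd (0.23), Nsdhl (0.23) and Pmvk (−0.04). It stayed high there for Sqle (0.99), Hsd17b7 (0.98) and Cyp51 (0.97). The median SD within diet was 0.44 for the 18 enzymes, 0.22 for features of the 2 brightest deciles and 0.34 for all features. Not all 18 enzymes were that bright: Lss, Mvk, Hsd17b7, Pmvk and Mvd lay in dimmer deciles. Sqle had a larger SD (0.92) than 99.3% of those bright features, and Ebp (0.13) than 14.1%. The hepatocyte markers did not share this order: their median deviation from the chow mean was 0.25, −0.47 and 0.23 under chow, where the enzymes stood at 0.50, 0.12 and −0.66.

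**Figure D3:**
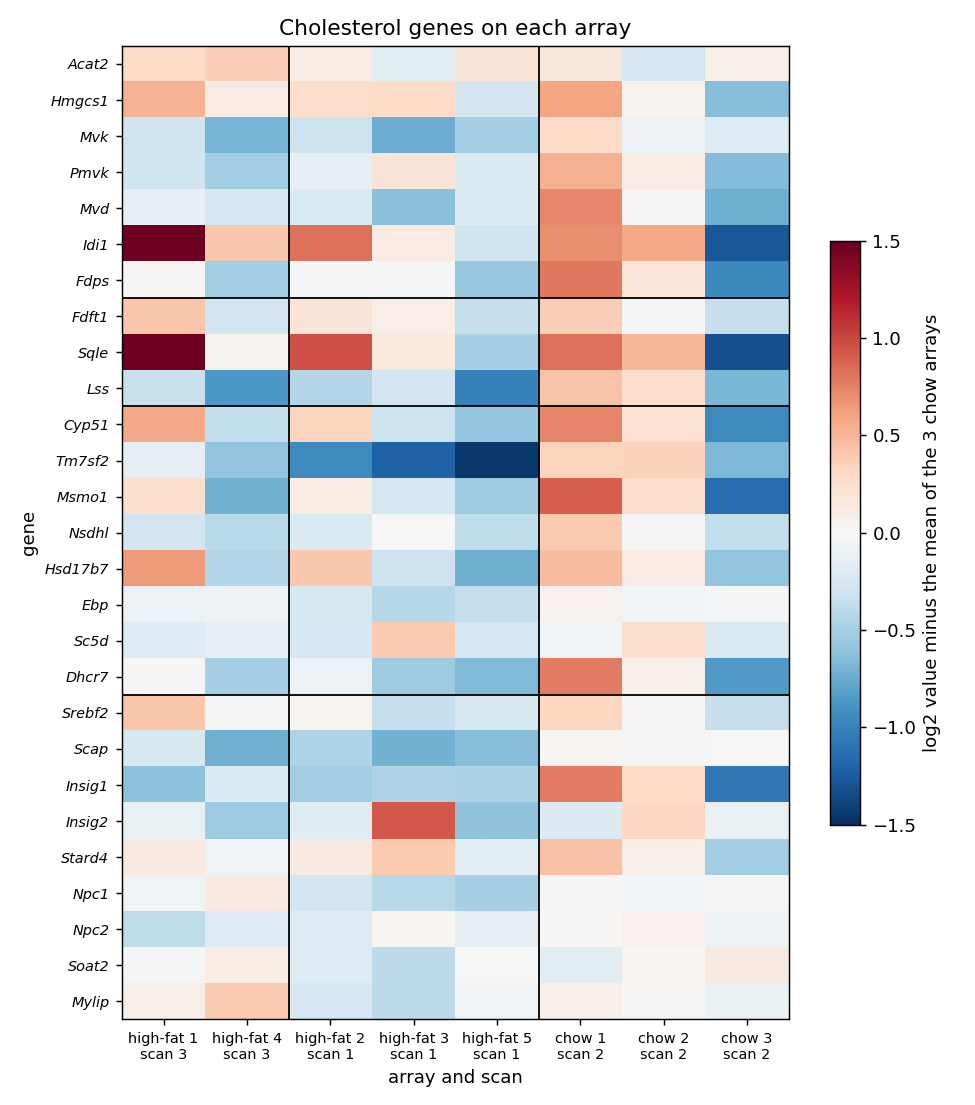
Log2 level of the 27 tested genes on each array minus the mean of that gene over the 3 chow arrays; columns are arrays ordered by diet and scan, and lines part the stages of the route and the control genes. Most enzyme rows are red on chow array 1 and blue on chow array 3, and Idi1 and Sqle are darkest red on high-fat array 1.

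**Figure D4:**
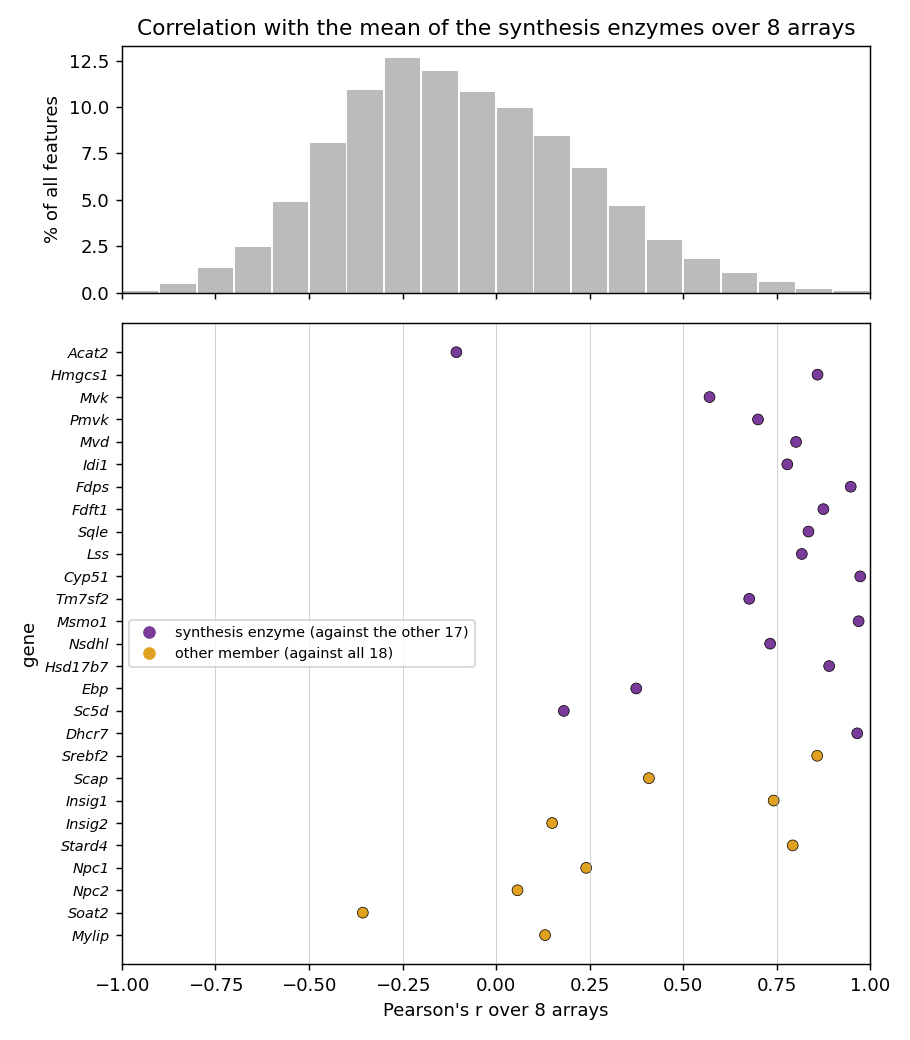
Upper panel, the share of all 22723 features by Pearson's r with the mean of the synthesis enzymes over 8 arrays; lower panel, r of each tested gene, an enzyme being set against the other 17. The plot shows 10 enzymes at 0.8 or above, while Acat2, Sc5d and Ebp lie under 0.4.

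Because most of the enzymes varied together, bases just upstream of the start site are shown for 4 of them (Hmgcs1, Idi1, Fdps and Msmo1, with r from 0.78 to 0.97), for Srebf2, and for Ebp, which kept apart. They come from RefSeq promoters on the GRCr8 build, which matched 23 of the 28 members. The capitals mark CCAAT, the box bound by NF-Y, on either strand (ATTGG when read on the other), and TCACNCCA, the core of a sterol regulatory element to which SREBP2 binds. Each is given 5′ to 3′ on the gene's strand.
Hmgcs1, chr2:53382106-53382185 (+): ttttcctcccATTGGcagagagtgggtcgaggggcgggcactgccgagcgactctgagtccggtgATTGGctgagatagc
Idi1, chr17:66547545-66547600 (−): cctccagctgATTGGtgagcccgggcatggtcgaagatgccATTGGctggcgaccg
Fdps, chr2:176804887-176804956 (−): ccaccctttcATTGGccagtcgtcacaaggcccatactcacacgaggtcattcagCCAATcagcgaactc
Msmo1, chr16:29746913-29747059 (+): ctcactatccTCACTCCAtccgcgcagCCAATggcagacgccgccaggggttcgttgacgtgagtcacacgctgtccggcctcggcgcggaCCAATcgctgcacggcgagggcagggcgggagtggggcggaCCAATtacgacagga
Srebf2, chr7:115543141-115543192 (+): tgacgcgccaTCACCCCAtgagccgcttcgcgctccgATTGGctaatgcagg
Ebp, chrX:16971337-16971391 (+): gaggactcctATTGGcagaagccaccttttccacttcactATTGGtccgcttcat

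CCAAT stood within 250 bases upstream, on either strand, in 12 of the 15 enzymes with a promoter in that table, against 34.3% of all 27457 promoters. The Sp1 box GGGCGG stood there in 13 of the 15, against 32.4%. TCACNCCA was found in 1 of the 15 enzymes, Msmo1, and in Srebf2, against 3.25% of all promoters. The letters did not sort the enzymes by agreement: Ebp holds CCAAT, whereas Cyp51 and Dhcr7, with r of 0.97 and 0.96, do not. These are matches of letters, not measured binding sites.

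Of the sterol sensors, Scap came closest to a difference between diets. Its log2 level was 2.14, 1.92, 1.67, 1.65 and 1.73 under high fat, and 2.40, 2.34 and 2.38 under chow. All 5 high-fat arrays lay below the 3 chow arrays, which were within 1.05-fold of each other. The difference was −0.55 ± 0.16 (SE, limma adjusted p = 0.0974), 1.47-fold lower, with a 95% confidence interval from −0.91 to −0.20. It was −0.41 beside features of like brightness, −0.60 for the high-fat arrays of scan 1 and −0.48 for those of scan 3. Its direction was kept in all 22 alternative fits (adjusted p from 0.01 to 0.787). Since the diets did not overlap, the fits that left out arrays could not turn it. It passed in 3 fits: array weights, normexp with quantile normalization, and the high-fat arrays of scan 1 alone. Over all features these 3 called 950, 1077 and 383 as lower, against 112 in the reported fit.

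Srebf2 itself showed no such gap. It read 3.99, 3.62, 3.23, 3.55 and 3.34 under high fat, and 3.90, 3.59 and 3.23 under chow, so the ranges nearly coincided. The difference was −0.029 ± 0.22 (SE, limma adjusted p = 0.962), from −0.53 to 0.48 in the 95% confidence interval, and turned above 0 (0.045 to 0.15) under normexp, quantile and cyclic loess scaling. From array to array Srebf2 followed the enzymes, with an r of 0.86 against the mean of the 18, or 0.92 with the scan means removed. Among all features 0.29% and 1.69% reached an r of at least 0.8 before and after that removal.

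Insig1, itself a classical target of SREBP2, had a wide range under chow and a narrow one under high fat. On chow arrays 1 to 3 it read 5.07, 4.60 and 3.23, a 3.56-fold range that ordered the arrays as the enzymes did. On high-fat arrays 1 to 5 it read 3.68, 3.78, 3.85, 4.10 and 3.82, a 1.33-fold range, while Sqle covered 3.90-fold on the same arrays. High-fat array 1, the highest for Sqle, was the lowest for Insig1. A wider range under chow was not particular to Insig1. Mvd covered 2.76-fold under chow and 1.41-fold under high fat, and Msmo1 4.13-fold and 1.95-fold. Hmgcs1, Mvk, Pmvk, Idi1, Fdps, Sqle, Lss, Cyp51, Nsdhl and Dhcr7 also had the wider range under chow. Acat2, Fdft1, Tm7sf2, Hsd17b7, Ebp and Sc5d had the wider range under high fat. The ranges were taken over 5 high-fat but only 3 chow arrays. Whether the 2 diets differ in the range of these genes was not tested. The difference between diets was −0.45 ± 0.36 (SE, limma adjusted p = 0.541), −0.99 without chow array 3 and −0.071 without chow array 1. Insig2, the second anchor of SCAP, read 3.33, 3.26, 4.37, 2.90 and 2.84 on high-fat arrays and 3.24, 3.76 and 3.34 on chow arrays. High-fat array 3 stood above the other 7, and the difference was −0.10 ± 0.34 (SE, limma adjusted p = 0.904).

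The proteins that carry cholesterol between membranes showed small differences. Stard4, a soluble sterol carrier, read 2.44, 2.44, 2.70, 2.24 and 2.13 under high fat, and 2.74, 2.39 and 1.78 under chow, a difference of 0.090 (limma adjusted p = 0.879). It followed the enzymes, with an r of 0.79 against their mean. A dimmer probe of Stard4 gave 0.45 for the same difference. Npc1, the lysosomal membrane protein that exports cholesterol, read 2.83, 2.62, 2.48, 3.04 and 2.40 on high-fat arrays and 2.92, 2.87 and 2.92 on chow arrays. High-fat array 4 exceeded every chow array and the other 4 lay below them, for a difference of −0.23 (limma adjusted p = 0.522). A second, dimmer probe of Npc1 gave −0.10. Its soluble partner Npc2 read 0.88, 1.06, 1.29, 1.06 and 1.11 on high-fat arrays and 1.27, 1.32 and 1.18 on chow arrays, and differed by −0.18 (adjusted p = 0.529). Neither Npc gene followed the enzymes (r of 0.24 and 0.057).

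Cholesterol is stored as ester by the acyltransferases of Soat1 and Soat2, the latter being the hepatocyte form. Soat2 ranged from −1.37 to −0.87 under high fat and from −1.14 to −0.85 under chow; the ranges overlapped and the difference was −0.10 ± 0.16 (SE, limma adjusted p = 0.788). Soat1 was well above background on 1 high-fat array and 0 chow arrays, so no difference is given for it. Mylip encodes the ubiquitin ligase IDOL, which sends lipoprotein receptors to degradation. It read 0.45, 0.12, −0.03, 0.76 and 0.33 on high-fat arrays and 0.45, 0.39 and 0.27 on chow arrays. High-fat arrays enclosed the chow range, and the difference was −0.043 ± 0.19 (SE, limma adjusted p = 0.932). A dimmer probe of Mylip gave −0.61.

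A further 28 genes of sterol control and transport were set beside the members. Of these, 24 were tested, with a median difference of 0.034; 1 passed as higher and 0 as lower, beside 3.07% and 0.49% of all features, so the count lay near the background share. The gene that passed was Rnf145, a sterol-responsive ubiquitin ligase of the endoplasmic reticulum. It was well above background on 5 high-fat and 0 chow arrays, so it met the filter through the high-fat arrays alone, its call rests on chow values below background, and with the filter on all 8 arrays it was not tested. Its log2 level averaged −4.32 ± 0.37 (SD, n = 5) on high-fat and −6.54 ± 0.72 (SD, n = 3) on chow arrays (limma adjusted p = 0.0112). All features of its brightness decile had a median difference of 0.16. Since the chow values are below background, the size of the Rnf145 difference is not known. It was 1.48-fold with each chow array raised to its lowest signal well above background. That level is set by the dimmest such probe of the array, whichever gene it measures. With a normexp background the sign turned (−0.44, adjusted p = 0.346), while all features then had a median of −0.29. The call was also lost with scan as a random block (adjusted p = 0.273) and without chow array 3 (0.0526). With normexp and quantile normalization it was lost too (0.233), and the difference was 0.21.

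The liver X receptor genes Nr1h2 and Nr1h3, which sense oxysterols, did not overlap between diets, as was so for 17.1% of all features (9.17% lower). Their differences of −0.46 and −0.31 did not pass (limma adjusted p = 0.115 and 0.251), and the brightness deciles they lie in had medians of −0.14 and −0.24. Their targets in sterol export, Abca1, Abcg1 and Abcg5, gave 0.19, −0.048 and 0.45 (adjusted p from 0.558 to 0.917). The SREBP proteases Mbtps1 and Mbtps2 gave −0.19 and 0.016 (0.506 and 0.985). From array to array, r of the 24 genes with the enzymes' mean ran from −0.54 (Stard5, a sterol carrier) to 0.63 (Erg28, a scaffold of the sterol enzymes). With the scan means removed it ran from −0.75 (Ggps1, geranylgeranyl diphosphate synthase) to 0.89 (Tmem97, a known sterol-regulated gene, 0.51 before), with Erlin1 at −0.73 and Mbtps1 at −0.60. An r of at least 0.8 was reached by 1.69% of all features after this removal, against 0.29% before.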

How the data were processed

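Single-colour Agilent arrays of liver RNA were read with Agilent Feature Extraction 11.0.1.1, per the submitters' processing notes. Per the file headers, the deposited processed signal is an intensity with background subtracted inside the array and no scaling between arrays. The authors also deposited a table of log2 values whose making is not given in the sources used here; its columns shared a median of 6.42, and it was used as an alternative. Outlier spots were dropped, log2 signals were averaged per probe, and each array's 75th percentile was taken off. Probes well above background (at least 0.5 of their spots) on at least 3 of 8 arrays were kept, and the brightest probe stood for a gene. Accessions were matched to RefSeq symbols (GRCr8) for 18005 of 30367 probes. Diets were compared with limma 3.58.1 (two-sided, Benjamini-Hochberg over 22872 features, threshold 0.05); the fit was tested on simulated data. The planned normexp alternative named the mean signal; it used instead (offset 50) the median signal and median local background. Genes named were all members, whatever their p, and those of the further list that passed; a few genes outside this rule (Adipoq, Nr1h2, Nr1h3, Abca1, Abcg1, Abcg5, Mbtps1, Mbtps2, Tmem97, Erg28, Stard5, Ggps1, Erlin1) were picked after their values were seen. Members and lists were chosen with earlier results of these data known. Replicate numbers were not used as pairs in the reported fit. Same-numbered deviations correlated at 0.05, 0.03 and 0.07. This cannot exclude pairing, since same-numbered samples of the diets never shared a scan. Depth is set by signal over background and the number of arrays limits the precision.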

Additional observations from a re-analysis of the deposited data

Results flagged for a closer look

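Among the 27 tested genes, 2 had a high-fat array far from the other 4, and in both it was high-fat array 3. Mvd read −2.16 there, with the nearest other high-fat array at −1.79, and Sc5d read 2.00, with the nearest high-fat array at 1.49. Chow arrays lay closer, with chow array 3 at −2.27 for Mvd and chow array 2 at 1.86 for Sc5d. Chance gives such a gap in about 1 group in 20, and 27 genes were examined. High-fat array 3 had the largest share of probes above background, 92.8%; its part in these values was not tested.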

How the results depend on the processing

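No member passed in the reported fit, and 3 alternatives gave calls, all lower: 1 with array weights (Scap), 1 with normexp and quantile normalization (Scap) and 2 with the high-fat arrays of scan 1 alone (Scap and Tm7sf2). Passing features numbered 132 higher and 17 lower with normexp, 84 and 0 with scan as a random block, 2522 and 383 with scan 1 alone and 1552 and 950 with array weights. Lower features numbered 294 with quantile normalization, 314 with cyclic loess, 1077 with normexp and quantile normalization, 396 with no filter, 310 in the authors' values and 982 with scan 3 alone; higher features numbered 391 with the filter on all 8 arrays. With the replicate number as a block, 4 rose and 0 fell, the enzymes' median was −0.015, Rnf145 no longer passed (limma adjusted p = 0.0647), and Cyp51 (0.19), Msmo1 (0.035), Hsd17b7 (0.24), Srebf2 (0.038) and Insig2 (0.21) turned.

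Other signs turned as follows; the cause was not tested. Normexp turned Acat2 (−0.10), Cyp51 (0.048), Dhcr7 (0.024), Srebf2 (0.045), Insig2 (0.13) and Mylip (0.086). Quantile normalization turned Cyp51 (0.050), Srebf2 (0.13) and Insig2 (0.037), the authors' values the same 3 (0.050, 0.13 and 0.035), and median scaling Fdft1 (−0.058). Cyclic loess turned Cyp51 (0.076), Sc5d (0.015), Srebf2 (0.15), Insig2 (0.068) and Mylip (0.012). Normexp with quantile normalization turned Acat2 (−0.068), Cyp51 (0.090), Sc5d (0.0091), Dhcr7 (0.043), Srebf2 (0.11), Insig2 (0.18) and Mylip (0.079). Scan 3 alone turned Cyp51 (0.10), Hsd17b7 (0.10), Srebf2 (0.20), Npc1 (0.036), Soat2 (0.046) and Mylip (0.24); scan 1 alone Fdft1 (−0.016) and Insig2 (0.047); array weights Fdft1 (−0.047) and Stard4 (−0.018).

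Leaving out each array in turn gave 356 to 732 higher and 18 to 89 lower features. The calls were 356 and 18 without chow array 1, 377 and 62 without chow array 2, 411 and 21 without chow array 3 and 436 and 18 without high-fat array 2. The enzymes' median ran from −0.48 to 0.11 and their average r from 0.41 to 0.57. The differences of these genes ran through 0: Cyp51 −0.55 to 0.29, Dhcr7 −0.78 to 0.035, Fdft1 −0.15 to 0.20, Fdps −0.71 to 0.17, Hmgcs1 −0.13 to 0.48, Hsd17b7 −0.38 to 0.14, Idi1 −0.13 to 0.85, Insig2 −0.36 to 0.051, Msmo1 −0.80 to 0.22, Mvd −0.66 to 0.074, Mylip −0.15 to 0.046, Pmvk −0.52 to 0.074, Sc5d −0.20 to 0.041, Sqle −0.23 to 0.85, Srebf2 −0.20 to 0.13 and Stard4 −0.17 to 0.31. Others kept their sign but moved widely: Insig1 −0.99 to −0.071, Nsdhl −0.44 to −0.063, Lss −0.93 to −0.37, Acat2 0.030 to 0.24 and Soat2 −0.18 to −0.028. Alternatives for the average r were chosen after seeing the data; it was 0.49 with normexp, where all features averaged 0.23, and 0.53 with quantile normalization. Chow arrays were dimmer, and Soat1 and Rnf145 were well above background on 0 of them.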
